A study of Mus musculus with 3 samples.

Results

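The genes described here are 32 mouse genes of sterol and fatty acid synthesis that are known targets or partners of the sterol regulatory element binding proteins (SREBPs). They fall into 3 genes of regulation and sterol transport, a sterol arm of 18 genes and a fatty acid arm of 11 genes. A gene was measured where a probe set carried its symbol and no other, and the probe set with the highest mean over the arrays stood for it. In this way 31 of the 32 genes were measured, among 19938 genes in all. Acat2, the cytosolic thiolase at the head of the sterol arm, was not analysed here, which left 17 genes in that arm. The kidneys came from C57BL/6 embryos at embryonic day 11.5 and were kept on Transwell filters for 48 h. The culture medium was DMEM, either supplemented with 10% fetal bovine serum (called serum below), left without it (serum-free), or left without it and given retinoic acid. RNA of each medium was read on 1 Affymetrix Mouse Gene 1.0 ST array, giving 3 arrays without replicates. Differences between them therefore come without an error or a test and describe the arrays only. The sources used here do not give the dose of retinoic acid or how many kidneys went into each RNA.

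SREBPs are transcription factors held in the endoplasmic reticulum membrane as precursors. When membrane sterol is low, the escort protein SCAP carries them to the Golgi, where proteases release the part that enters the nucleus. Insig proteins hold SCAP back when sterol is plentiful, and Insig1 is itself a target gene. SREBP-2, encoded by Srebf2, acts mainly on genes of cholesterol synthesis and uptake, and forms encoded by Srebf1 act more on genes of fatty acid synthesis. Serum brings lipoprotein cholesterol and fatty acids to cultured cells, along with growth factors and hormones. Embryonic tissue needs cholesterol both for membranes and for the modification of Hedgehog proteins, which take part in kidney and ureter development.

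SREBPs bind sterol regulatory elements and some E-boxes, and are known to act together with NF-Y, which binds CCAAT boxes. The 250 bases before a RefSeq start of the gene (GRCm38.p6) were read for 25 of the 32 genes, and 6 of these windows are printed. Those of Hmgcs1, Msmo1 and Srebf2 hold a short form of the sterol regulatory element. Insig1, Idi1 and Me1 are genes with some of the larger differences. Capitals mark the short form of the sterol regulatory element (TCACNCCA), the E-box (CACGTG) and the NF-Y box (CCAAT), on either strand. The windows are Hmgcs1 at chr13:119690101-119690350 (plus strand), Msmo1 at chr8:64733579-64733828 (minus strand), Srebf2 at chr15:82147019-82147268 (plus strand), Insig1 at chr5:28071162-28071411 (plus strand), Idi1 at chr13:8885356-8885605 (plus strand) and Me1 at chr9:86695915-86696164 (minus strand), each written 5′ to 3′ along its gene.
Hmgcs1: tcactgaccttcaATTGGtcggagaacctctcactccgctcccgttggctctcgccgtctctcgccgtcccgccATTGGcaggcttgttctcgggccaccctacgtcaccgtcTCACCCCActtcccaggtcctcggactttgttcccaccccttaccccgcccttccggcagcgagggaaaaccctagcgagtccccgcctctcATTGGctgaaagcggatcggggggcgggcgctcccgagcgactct
Msmo1: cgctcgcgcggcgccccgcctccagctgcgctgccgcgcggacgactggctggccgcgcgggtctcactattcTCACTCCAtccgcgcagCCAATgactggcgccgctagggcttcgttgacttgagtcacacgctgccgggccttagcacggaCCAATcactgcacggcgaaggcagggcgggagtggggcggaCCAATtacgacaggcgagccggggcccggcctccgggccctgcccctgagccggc
Srebf2: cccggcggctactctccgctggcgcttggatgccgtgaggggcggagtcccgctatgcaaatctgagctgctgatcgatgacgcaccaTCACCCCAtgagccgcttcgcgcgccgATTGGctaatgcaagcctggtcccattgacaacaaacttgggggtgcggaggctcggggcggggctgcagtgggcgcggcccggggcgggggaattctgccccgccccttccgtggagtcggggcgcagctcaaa
Insig1: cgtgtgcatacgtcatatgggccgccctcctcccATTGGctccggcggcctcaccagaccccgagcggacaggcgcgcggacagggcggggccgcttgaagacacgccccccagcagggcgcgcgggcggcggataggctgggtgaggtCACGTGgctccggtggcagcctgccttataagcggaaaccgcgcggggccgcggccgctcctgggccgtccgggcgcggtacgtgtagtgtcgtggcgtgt
Idi1: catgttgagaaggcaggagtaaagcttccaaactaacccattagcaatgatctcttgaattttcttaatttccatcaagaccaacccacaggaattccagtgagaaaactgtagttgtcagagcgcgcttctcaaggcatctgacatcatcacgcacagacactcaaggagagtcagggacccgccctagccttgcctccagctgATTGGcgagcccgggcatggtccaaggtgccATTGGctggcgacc
Me1: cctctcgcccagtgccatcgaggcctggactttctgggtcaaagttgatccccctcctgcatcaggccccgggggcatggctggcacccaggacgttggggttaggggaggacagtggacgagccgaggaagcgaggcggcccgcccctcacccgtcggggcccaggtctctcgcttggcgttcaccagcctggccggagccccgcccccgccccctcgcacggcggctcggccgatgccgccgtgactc

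The short sterol regulatory element was found in 3 of the 25 windows, those of Srebf2, Hmgcs1 and Msmo1, and in 3.59% of the 27025 gene windows in the table. In Hmgcs1 it lies at bases -137 to -130 before the start, in Msmo1 at -177 to -170 and in Srebf2 at -162 to -155. A longer form, with 1 more fixed base at each end, was in 0 of the 25 windows and in 0.196% of all windows. The E-box was in 3 windows, those of Insig1 (-101 to -96), Sc5d (-98 to -93) and Hsd17b7 (-143 to -138), in 6.04% of all windows and in 8.73% of the 8280 windows of genes at or above the level floor given below. For the short sterol regulatory element that share was 3.04%. The NF-Y box was more frequent, in 18 of the 25 windows against 34.5% of all windows and 36.9% of those 8280 windows. By arm it was in 13 of 15 sterol arm windows, in 3 of 8 fatty acid arm windows, and in both windows of regulation and transport. Idi1 holds 2 of these boxes, at -45 to -41 and -14 to -10, and neither of the other motifs, and Me1 holds none of the 3 motifs. In the 25 windows no match of one motif overlapped a match of a different motif. These are matches of letters only, in 1 window per gene. The window was off the outermost start that RefSeq gives by 5 bases for Mvk, 37 for Hsd17b7 and 40 for Lss. It was off by 619 bases for Fasn, 693 for Fads3 and 65803 for Acaca. These larger offsets are all in the fatty acid arm, so the windows of the arms are not placed alike. Windows of Stard4, Fdps, Fdft1, Sqle, Scd1, Scd2 and Fads1 were not used here.

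The arrays were comparable in their overall level, with median intensities from 81.6 to 85.5 over all probe sets. Values below are log2 of the deposited intensity. A level floor was set at 7.12, the median of all gene values, and a gene entered a comparison where its higher value reached the floor. All 31 genes lay above the floor on every array. The label of kidney was borne out by 12 of 12 kidney markers above the floor on every array, while 0 of 5 hepatocyte markers and 0 of 6 adrenal cortex markers reached it on any array, and of 6 adipocyte markers only Pparg did. Signals from different probe sets are on different scales, so no gene's level is set against another's. Where a gene had another probe set, its difference between media disagreed by up to 0.26 (serum-free against serum), 0.25 (retinoic acid against serum-free) and 0.31 (retinoic acid against serum) in 95% of cases. This covers the spread between probe sets of 1 array only, not between embryos.

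The first comparison asked how these genes differed when serum was left out. All 31 differences were below 0, as were 51.0% of the 10156 genes in the comparison, of which 19.5% were above 0. At least 1.5-fold lower were 16 of the 31 genes, against 2.07% of all genes, and at least 2-fold lower were 4, against 0.699%. None was 1.5-fold higher, a size that 2.01% of all genes reached. The median was -0.59, and over all genes in the comparison it was 0.00 to 2 decimals. Beyond the probe set spread of 0.26, 27 of the 31 genes were lower and 0 higher, against 9.50% and 5.21% of all genes.

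**Figure D1:**
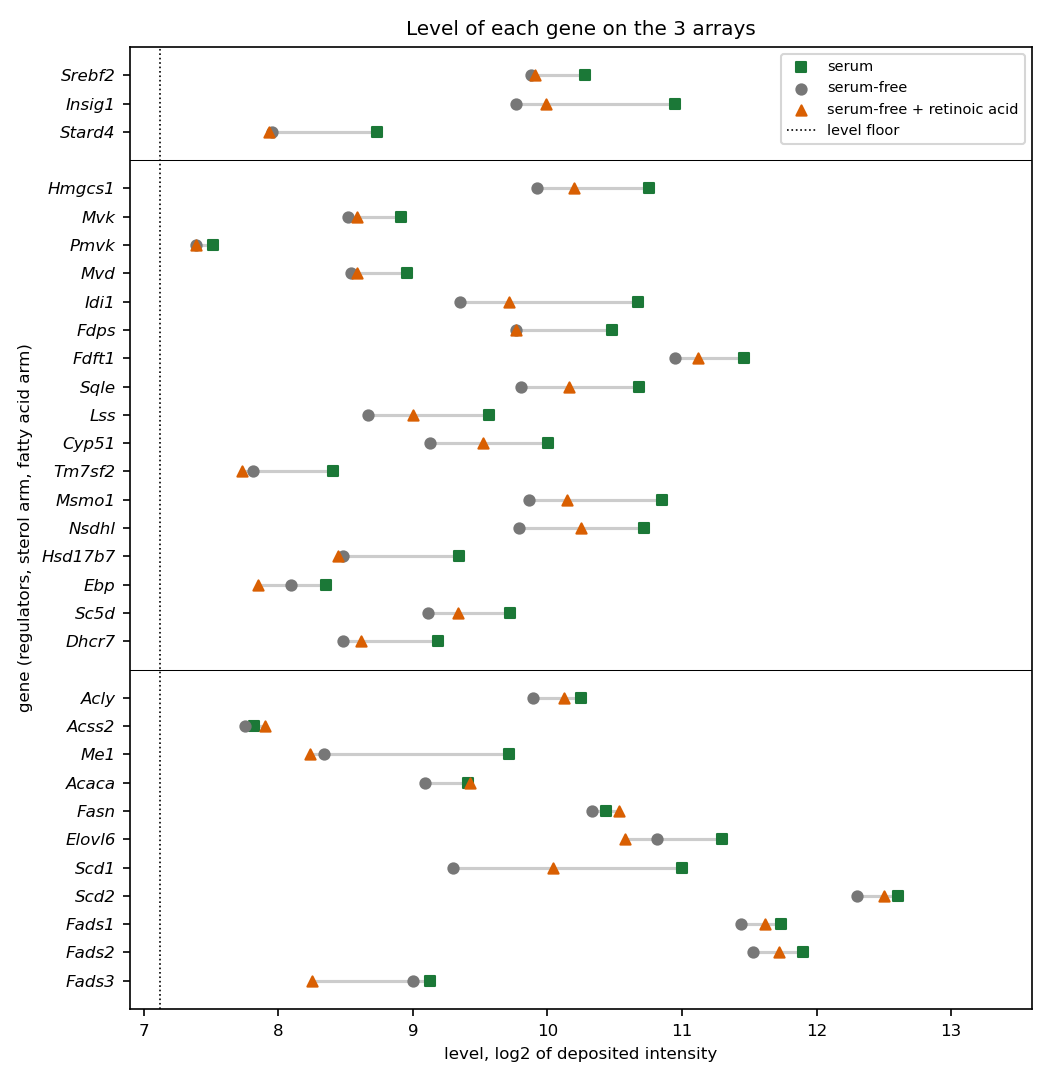
Level of each of the 31 measured genes on the 3 arrays, as log2 of the deposited intensity (horizontal axis), 1 array per medium with no error bar. Squares are serum, circles serum-free medium, triangles serum-free medium with retinoic acid, and the dotted line is the floor at 7.12. The serum square lies to the right of the circle for all 31 genes, and signals of different genes are not comparable.

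Of the genes of regulation and transport, Insig1 was at 10.95 in serum, 9.77 without serum and 9.99 with retinoic acid. It was thus 2.27-fold lower without serum and ranked 50 from the lowest of 10156 genes. Stard4, which encodes a soluble protein that carries sterol between membranes, was at 8.73, 7.95 and 7.93 in the same order. Both serum-free media lay together, well under serum. Srebf2 itself was at 10.28, 9.88 and 9.91, a difference of -0.41 without serum, smaller than that of Insig1 and Stard4.

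In the sterol arm, 17 of 17 differences were below 0, with a median of -0.72, and 12 genes were at least 1.5-fold lower. The opening steps build mevalonate and the isoprenoid units from acetyl-CoA. Hmgcs1, the cytosolic HMG-CoA synthase, was at 10.75 in serum, 9.92 without serum and 10.20 with retinoic acid. Idi1, which interconverts the isoprenoid units, had the largest difference of the arm, at 10.68, 9.35 and 9.71. It was 2.50-fold lower without serum and the only gene of the arm past 2-fold. A further probe set of Idi1 gave -1.39 where the chosen one gave -1.32. Fdps, which makes farnesyl diphosphate, was at 10.48, 9.76 and 9.76.

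The kinases and the decarboxylase between these steps differed less. Mvk, mevalonate kinase, was at 8.91 in serum and 8.52 without, and Mvd, the decarboxylase that yields the isoprenoid unit, at 8.95 and 8.54. Pmvk, phosphomevalonate kinase, had the smallest difference of the arm, from 7.52 to 7.39, or -0.13, and lay close to the floor. Of the 17 genes only Pmvk stayed within the probe set spread of 0.26, and Ebp stood just past it.

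The next steps commit carbon to sterols. Fdft1, squalene synthase, was at 11.46 in serum, 10.95 without serum and 11.12 with retinoic acid. Its chosen probe set gave -0.51 and its other one -0.76. Sqle, squalene epoxidase, a known rate-limiting step, was at 10.68, 9.81 and 10.16. Lss, which closes the rings to form lanosterol, was at 9.57, 8.67 and 9.00. Sqle and Lss were 1.83-fold and 1.86-fold lower without serum, and Fdft1 was 1.42-fold lower.

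Of 8 genes that turn lanosterol into cholesterol, 7 were at least 1.5-fold lower without serum, against 2.07% of all genes. The 2-fold size was reached by 0 of them, against 0.699% of all genes. Msmo1, the sterol methyl oxidase, came nearest, at 10.85 in serum, 9.87 without serum and 10.15 with retinoic acid, a difference of -0.99. Nsdhl, which acts with it in removing methyl groups, was at 10.72, 9.79 and 10.25. Cyp51, lanosterol demethylase, was at 10.00, 9.12 and 9.52. In these 3 the retinoic acid array lay between the others. Hsd17b7, the keto-reductase of the same complex, was different in this respect, with 9.34 in serum against 8.48 and 8.45 in the serum-free media. Dhcr7, a late sterol reductase, was at 9.19, 8.48 and 8.61, and Sc5d, the desaturase before it, at 9.72, 9.11 and 9.34. Tm7sf2, a sterol reductase, was at 8.40, 7.82 and 7.73, a difference of -0.59 that just met the 1.5-fold limit. Ebp, the sterol isomerase, had the smallest difference of these 8, from 8.35 to 8.09.

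The fatty acid arm also had all 11 differences below 0, but its median was -0.31, and 2 of its genes were 1.5-fold lower, both by more than 2-fold. Past the probe set spread of 0.26 lay 8 of the 11 genes, against 16 of 17 in the sterol arm and 9.50% of all genes. Scd1, a stearoyl-CoA desaturase that makes monounsaturated fatty acids, had the largest difference of the whole group. It was at 11.00 in serum, 9.30 without serum and 10.04 with retinoic acid, which made it 3.26-fold lower without serum and rank 22 from the lowest of 10156 genes. Its paralog Scd2 was at 12.60, 12.30 and 12.50, a difference of -0.30. Probe sequences were not used here, so whether signal of one desaturase reached the probes of the other was not tested. Me1, the cytosolic malic enzyme, which supplies NADPH, was at 9.71, 8.34 and 8.24. It was 2.60-fold lower without serum, and its other probe set gave -1.41 beside -1.38.

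The remaining 9 genes of the arm lay between -0.48 and -0.07. Fasn, fatty acid synthase, was at 10.44 in serum and 10.33 without, or -0.11. Acaca, acetyl-CoA carboxylase, which makes the malonyl-CoA that Fasn uses, was at 9.41 and 9.09, and its other probe set gave -0.47 beside -0.31. Fasn thus stayed within the probe set spread of 0.26, and Acaca lay past it on both probe sets. Acly and Acss2, which make cytosolic acetyl-CoA from citrate and from acetate, gave -0.36 and -0.07. Elovl6, which lengthens the product of Fasn, was at 11.30 and 10.81. The FADS genes gave -0.30 for Fads1, -0.37 for Fads2 and -0.12 for Fads3. Fads1 and Fads2 encode the desaturases of polyunsaturated fatty acids.

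Side by side, the medians without serum were -0.72 in the sterol arm and -0.31 in the fatty acid arm, a gap of -0.40. The ranges overlapped, from -1.32 to -0.13 in the sterol arm and from -1.70 to -0.07 in the fatty acid arm. On the chosen probe sets Scd1 and Me1 lay below every sterol gene. Me1, at -1.38 and -1.41 on its probe sets, was close to Idi1, at -1.32 and -1.39. At least 1.5-fold lower were 12 of 17 genes in one arm and 2 of 11 in the other. With 1 array per medium the gap between the arms has no test.

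**Figure D2:**
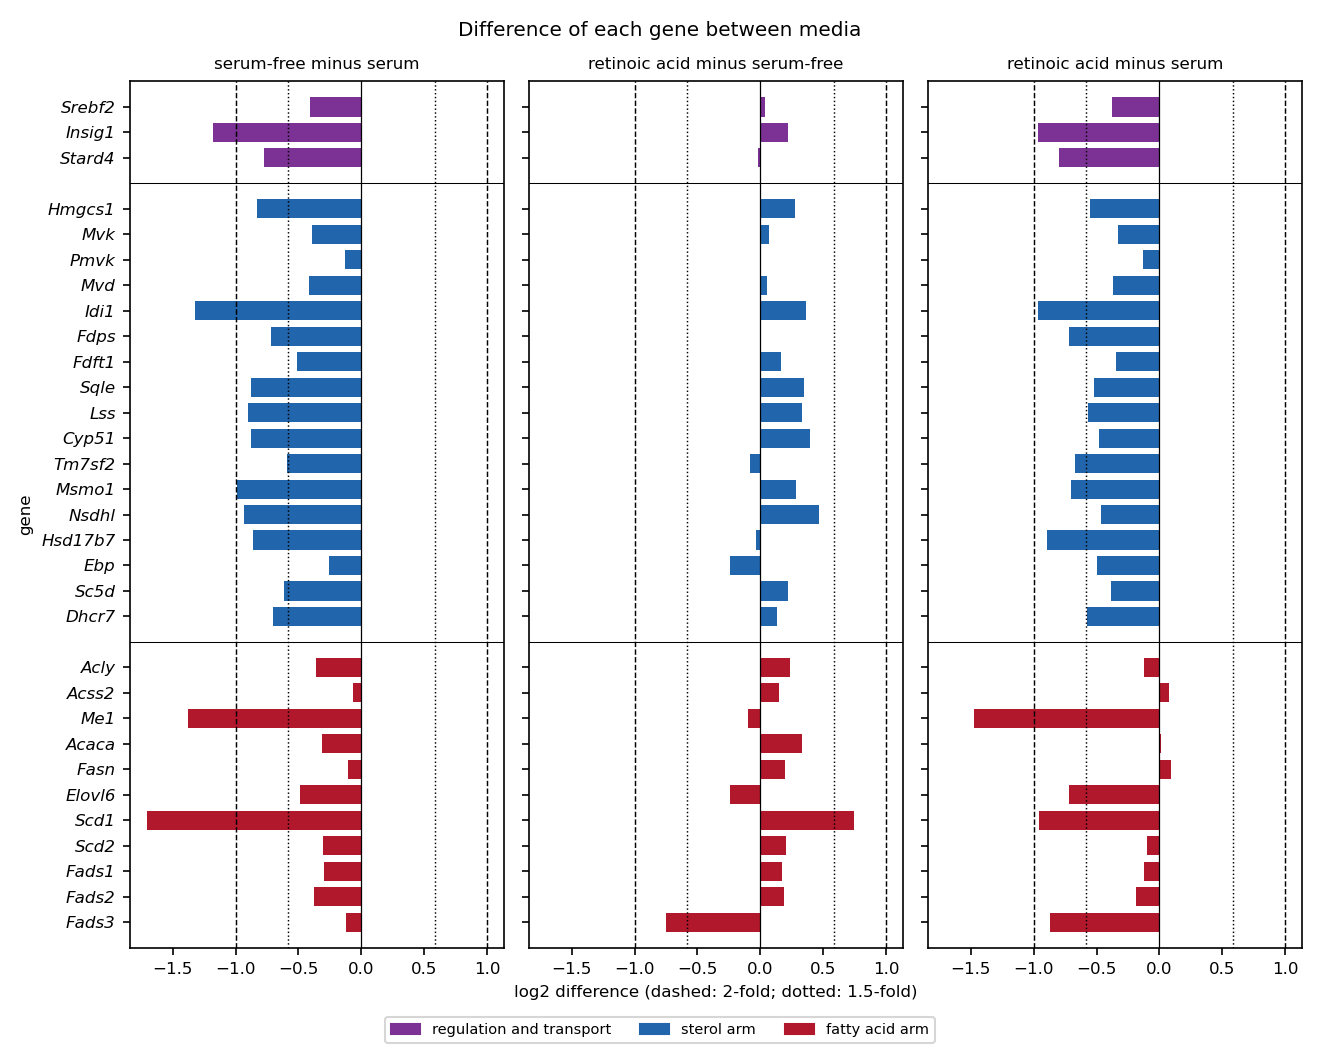
Log2 difference of each gene (horizontal axis) in the 3 comparisons, with sterol arm genes in pathway order, and 1 array per medium. Dashed lines mark 2-fold and dotted lines 1.5-fold. Without serum all bars point left, Idi1, Insig1, Scd1 and Me1 past the dashed line, and in retinoic acid against serum-free medium none reaches it.

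Other transcripts differed between the same arrays, and their part in these differences was not tested. Leaving out serum went with a median of 1.28 over 18 macrophage markers, of which 14 were higher by 2-fold or more (0.876% of all genes were). Their summed intensity was 4494 in serum, 12915 without serum and 9008 with retinoic acid. Of these markers Cd14, Aif1 and Itgam lay under the floor on every array, and 14 of the 18 entered the comparison. In serum 11 of the 18 reached the floor. Mrc1, C1qa and Fcgr1 were under it there and entered only through their higher values without serum. Of 11 mitosis genes, 11 had differences below 0 without serum, against 51.0% of all genes, with a median of -0.21. Of these 0 were past 1.5-fold, where 2.07% of all genes were lower by that size. The summed intensity of the mitosis genes was 18863, 16359 and 16564. In RNA of a whole organ, fewer cells of a type and less RNA per cell cannot be told apart.

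The second comparison set explants given retinoic acid against those in plain serum-free medium. Of the 31 differences, 22 were above 0, 7 below and 2 exactly 0, against 29.5%, 35.1% and 35.4% of 10111 genes. The median was 0.18, and over all genes in the comparison it was 0.00. None of the 31 differed 2-fold, a size that 1.05% of all genes reached upwards and 0.613% downwards. At least 1.5-fold higher was 1 gene, Scd1, and at least 1.5-fold lower was 1, Fads3, where 2.41% and 1.94% of all genes passed. Beyond the probe set spread of 0.25, 9 genes were higher and 1 lower, against 6.16% and 7.36% of all genes. This comparison and the first share the serum-free array, so an error on it would move both in opposite directions.

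In the sterol arm the median was 0.16, with 12 genes above 0, 3 below and 2 exactly equal. Beyond the probe set spread stood 7 genes, all higher with retinoic acid. Nsdhl had the largest difference at 0.47, followed by Cyp51 at 0.40, Idi1 at 0.36, Sqle at 0.35, Lss at 0.33, Msmo1 at 0.28 and Hmgcs1 at 0.28. The genes between Hmgcs1 and Sqle other than Idi1 stayed within the spread on their chosen probe sets. Fdft1 was at 0.16, Mvk at 0.07 and Mvd at 0.05, and the other probe set of Fdft1 gave 0.26, just past the spread. Fdps and Pmvk had exactly equal values on both arrays, which RMA's summary of a probe set often returns and which is no measure of equal expression. Ebp at -0.24, Tm7sf2 at -0.08 and Hsd17b7 at -0.04 were the 3 genes below 0. Nsdhl and Ebp lie on the X chromosome, and Xist, the RNA of the inactive X chromosome, was at 10.84 in serum, 11.48 without serum and 9.79 with retinoic acid. The part of embryo sex in the values of these X-linked genes was not tested.

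In the fatty acid arm the median was 0.19, close to that of the sterol arm, and 8 of 11 genes were above 0. Scd1 was 1.67-fold higher with retinoic acid (10.04 against 9.30) and ranked 163 from the highest of 10111 genes. Acaca was higher by 0.33 on both of its probe sets. Most others lay close together, with Acly at 0.24, Scd2 and Fasn at 0.20 each, Fads2 at 0.19, Fads1 at 0.18 and Acss2 at 0.15. Below 0 were Elovl6 at -0.24, Me1 at -0.10, which was 0.04 on its other probe set, and Fads3.

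Fads3, a FADS family gene, went the other way from Fads1 and Fads2. It was at 9.12 in serum, 9.00 without serum and 8.25 with retinoic acid. The 2 media without added retinoic acid thus lay together and the third apart. It was 1.68-fold lower with retinoic acid than without, rank 133 from the lowest of 10111 genes, while Fads1 and Fads2 were at 11.62 and 11.72 with retinoic acid against 11.44 and 11.53 without. Signal shared between probes of the family was not tested.

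Of the genes of regulation and transport, Insig1 gave 0.22, Srebf2 0.03 and Stard4 -0.02. All 3 stayed within the probe set spread. In the same comparison the macrophage markers had a median of -0.43, with 2 of 18 lower by 2-fold or more and 1 higher, against 0.613% and 1.05% of all genes. By 1.5-fold or more 6 were lower and 1 higher, against 1.94% and 2.41% of all genes. The higher one, Pf4, was at 6.28 without serum, under the floor, and at 7.36 with retinoic acid. The mitosis genes had a median of 0.01.

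**Figure D3:**
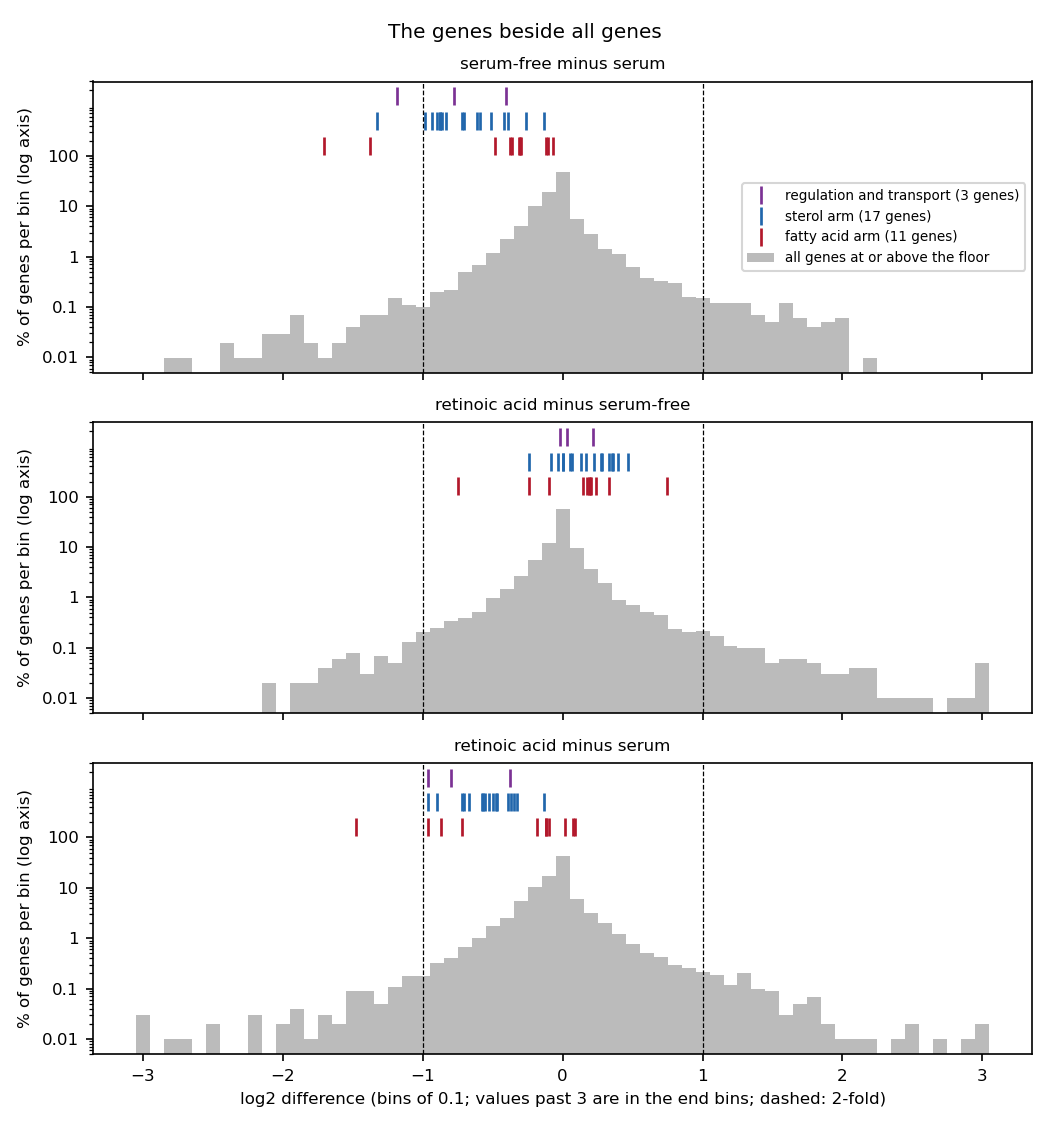
Share of all genes at or above the floor in each bin of log2 difference (grey bars, log axis), with a tick above for each gene of the 3 groups. Without serum every tick lies left of 0, and with retinoic acid against serum-free medium 22 of the 31 lie right of it.

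The third comparison set serum-free medium with retinoic acid against serum, and shares an array with each of the others. Of the 31 genes, 28 had differences below 0 and 3 above, against 51.3% and 21.2% of 10169 genes. At least 1.5-fold lower were 11 genes, against 2.84% of all, and 0 were 1.5-fold higher, against 2.46%. At least 2-fold lower was 1 gene, Me1, against 0.816% of all. Beyond the probe set spread of 0.31, 23 genes were lower and 0 higher, against 9.59% and 5.48% of all genes.

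The sterol arm stayed below serum in 17 of 17 genes, with a median of -0.52 and a range from -0.96 to -0.13. Idi1 gave -0.96, Hsd17b7 -0.90, Fdps -0.72 and Msmo1 -0.71. With Tm7sf2 at -0.67 these were the 5 genes of the arm at least 1.5-fold lower. The regulator Insig1 gave -0.96 and Stard4 -0.80.

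In the fatty acid arm 8 of 11 genes were below 0, and the median was -0.12. Beyond the probe set spread of 0.31 lay 4 genes, Me1 at -1.48, Scd1 at -0.96, Fads3 at -0.87 and Elovl6 at -0.72. Me1 was 2.78-fold lower than in serum, rank 28 from the lowest of 10169 genes. The values of the other 7 ran from -0.18 for Fads2 to 0.09 for Fasn, with Acss2 at 0.08 and Acaca at 0.02. The gap between the arms' medians was -0.40, as it was without retinoic acid, while in retinoic acid against serum-free medium it was -0.03. The macrophage markers had a median of 0.90 in this comparison and the mitosis genes one of -0.20, and their part was not tested.

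Of 29 further genes of the SREBP pathway, 22 were measured and 7 were not analysed here. Without serum 14 differences were below 0, 5 above and 3 exactly 0, with a median of -0.11. Of the 18 genes that entered the comparison, 13 were below 0 and 3 above, with a median of -0.12. This median is closer to all genes than either arm was. The members of the arms were chosen with earlier results of these data known, so this contrast depends in part on that choice. At least 1.5-fold lower was 1 of these 18 genes, where 2.07% of all genes were. It was Tmem97, a sterol-regulated membrane protein gene, at 11.02 in serum, 10.42 without serum and 10.34 with retinoic acid. With retinoic acid against serum-free medium, 1 gene was at least 1.5-fold higher, where 2.41% of all genes were, the elongase gene Elovl5, at 11.35 in serum, 11.07 without serum and 11.77 with retinoic acid. Elovl5 lengthens polyunsaturated fatty acids made by Fads1 and Fads2.

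Some more genes of this list, of the SREBP machinery or of other parts of the pathway, were named after their values were seen. Srebf1 was at 8.83 in serum, 8.47 without serum and 8.59 with retinoic acid, a difference of -0.36 without serum against -0.41 for Srebf2. Scap was at 9.77, 9.77 and 9.74, and Insig2, the paralog of Insig1, at 8.76, 8.64 and 8.68. Neither thus showed a difference like that of Insig1. Mbtps1, which encodes a protease of the machinery, was at 10.82, 10.75 and 10.94. Npc1, which moves cholesterol out of lysosomes, went the other way, at 9.61 in serum, 10.06 without serum and 10.01 with retinoic acid. It had the highest of the 5 differences above 0 without serum. Among the lowest of the 14 below 0, besides Tmem97, were Mmab at -0.51, and Rdh11 and Aacs at -0.40 each.

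**Figure D4:**
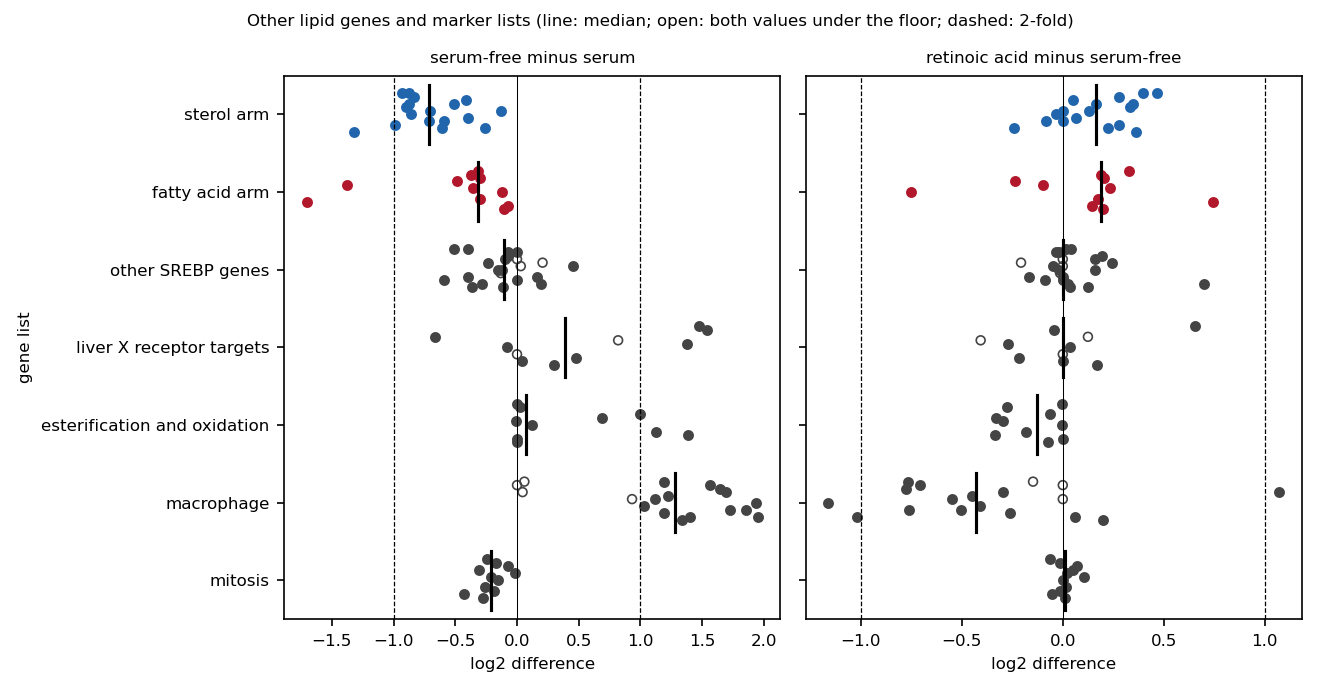
Log2 difference (horizontal axis) of each gene of both arms and of 5 other lists, without serum against serum (left) and with retinoic acid against serum-free medium (right). The line is the list's median, open circles lay under the floor in both media, and dashed lines mark 2-fold. Of the lists shown, the sterol arm has the lowest median without serum, -0.72, and the macrophage markers the highest, 1.28. The 3 genes of regulation and transport, with a median of -0.78, are not shown.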

How the data were processed

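Gene expression was measured in 3 samples of cultured embryonic mouse kidney, 1 Affymetrix Mouse Gene 1.0 ST array per medium, from 250 ng RNA each. The authors deposited linear intensities per probe set (range 3.84 to 17250), made with Affymetrix Expression Console 1.1 and RMA, per the submitters' processing notes, with settings not given in the sources used here. Samples were grouped by the medium in the labels. Log2 of the deposited intensity was used without a pseudocount or further scaling. Of 35556 probe sets, 21789 carried 1 gene symbol, 1621 several and 12146 none, and only the first kind was used (platform annotation). The 19938 genes include 999 with several probe sets. Differences were counted at 2-fold and 1.5-fold with the higher value at or above 7.12, and the procedure was tested on simulated data. All members are named, and of the other SREBP, liver X receptor and fatty acid use lists the genes past 1.5-fold, at most 4 per comparison. Other genes, cell type markers among them, were named after their values were seen. The members and lists were chosen with earlier results of these data known. Alternatives were 32 added to the intensities, cyclic loess (limma 3.58.1 in R 4.3.3), centring each array on its median, the mean of a gene's probe sets, and no floor. Tables were computed with Python 3.11.15, numpy 2.4.6 and pandas 2.3.3. Promoter windows are RefSeq's, of GRCm38.p6.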

Additional observations from a re-analysis of the deposited data

How the results depend on the processing

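The medians of each group of genes, the gap between the arms and the counts past 1.5-fold and 2-fold were recomputed under 5 alternatives, giving 240 values. All 240 stayed within 0.1 (medians) or within 1.5 times (counts). The 48 values without the floor could not change, since all 31 genes lay above it on every array. The mean of the probe sets could alter only the 4 genes with several. The sterol arm median without serum was -0.70 with 32 added, -0.68 under cyclic loess, -0.70 with each array centred, and -0.72 under the other 2. The fatty acid arm median ran from -0.36 to -0.28. The count of sterol genes at least 1.5-fold lower without serum was 10 with 32 added and under cyclic loess, 11 with each array centred and 13 with the mean of the probe sets. The gap between the arms with retinoic acid against serum-free medium was 0.02 with that mean, against -0.03. Of 465 single gene values, 93 of them without the floor and likewise unable to change, 1 moved by more than 0.1. It was that of Fdft1 without serum, which was -0.63 with the mean of its probe sets. No scaling moved the median of all genes by more than 0.1. No paired analysis was possible because each medium has 1 array. The lack of replicates limits every value, since neither the spread between kidneys nor between hybridisations can be had from 1 array per medium.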

Other observations

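Plin2, Cpt1a, Angptl4 and Pdk4 were higher without serum, where the synthesis genes were lower. Of 10 measured genes of fatty acid oxidation, its control and lipid droplets (of 14 listed, the sterol esterification genes not being measured), serum-free culture had 4 higher by 1.5-fold or more and 0 lower by that size, against 2.01% and 2.07% of all genes. Plin2, which encodes a coat protein of lipid droplets, was at 9.64 in serum, 11.02 without serum and 10.68 with retinoic acid, 2.60-fold higher without serum. Cpt1a, which lets fatty acids into mitochondria, was at 9.24, 10.36 and 10.18. Angptl4, an inhibitor of lipoprotein lipase, was at 7.65, 8.64 and 8.58, and Pdk4, a kinase that restrains glucose oxidation, at 6.82, 7.51 and 7.18, with the serum value under the floor.

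The enzymes that carry out mitochondrial oxidation stayed near 0 in the same comparison. The values of Cpt2, Acadm, Acadl, Acadvl, Hadha and Hadhb without serum ran from -0.01 to 0.12, so the list's median was only 0.08. With retinoic acid against serum-free medium 9 of the 10 genes had differences below 0, against 35.1% of all genes, with a median of -0.13. None was past 1.5-fold, where 2.41% of all genes were higher and 1.94% lower by that size. Macrophage markers were higher without serum on the same arrays, and their part in the values of Plin2 and Cpt1a was not tested.

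Of 12 liver X receptor genes, 10 were measured. Without serum their median was 0.39, with 3 higher by 2-fold or more (0.876% of all genes were) and 1 lower by 1.5-fold or more (2.07% were). Higher were the cholesterol exporter genes Abca1, at 8.11 in serum, 9.58 without serum and 10.23 with retinoic acid, and Abcg1, at 7.46, 8.84 and 8.57. Apoe, which encodes a lipoprotein component, was at 10.94, 12.48 and 12.44. Lower was Abcg5, a sterol transporter gene close to the floor, at 7.16, 6.49 and 6.61. On the same arrays 14 of 18 macrophage markers were higher by 2-fold or more, some from a serum value under the floor. The markers had a median of 1.28, and their part in these values was not tested.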
